A study of Mus musculus with 8 samples.

Results

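The genes of glycolysis and of glucose and lactate transport were examined in detached mouse retina. They were 33 genes chosen by name, from the glucose transporters to the kinases of pyruvate dehydrogenase, and all 33 were found among the 56465 features measured. Each gene was the feature carrying its symbol, or the one with the highest mean where a symbol had several. Messenger RNA had been sequenced in 4 retinas of wild-type mice (WT replicates 3, 4, 5 and 7) and 4 of mice expressing human transferrin (TG replicates 2, 5, 6 and 8). Human transferrin is the iron carrier of blood plasma, and the study asked, by its title, about its effect during detachment. All 8 samples carried the C57Bl/6J label, and every retina had been detached by 10 µl of sodium hyaluronate injected beneath it and was collected at day 4, so no attached retina entered the comparison. WT held 3 males and 1 female and TG 2 of each. By eye, WT held 3 right and 1 left and TG 2 of each. Age, the promoter and cells that drive the transgene, and the number of founder lines were not given in the sources used here. The labels do not state whether each retina came from a separate animal. WT 3, 4 and 5 were right retinas of males and WT 7 a left retina of a female, so these 4 came from different animals. TG 2 and TG 5 were a left and a right retina of males, and TG 6 and TG 8 of females. Each of these TG pairs could be the 2 eyes of 1 animal. Errors measure the spread between these samples, which in TG may lie partly within an animal.

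The retina takes up much glucose, and photoreceptors turn a large part of it into lactate even when oxygen is present. Hexokinase traps glucose in the cell, phosphofructokinase commits it to glycolysis, and the PFKFB enzymes make and remove the signal, fructose 2,6-bisphosphate, that speeds phosphofructokinase. Lactate dehydrogenase converts pyruvate to lactate, which leaves or enters cells through monocarboxylate transporters held at the membrane by basigin. Pyruvate dehydrogenase sends pyruvate to mitochondria instead and is switched off by its kinases. Detachment separates photoreceptors from the pigment epithelium, the layer that passes them glucose and takes up their lactate.

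Libraries held 61535690 to 75866423 reads. The summed normalized reads of 6 rod markers ran from 3056210 to 3511130 in WT and 2705670 to 4116620 in TG, so rod message was abundant in every library. Markers of neighbouring tissue were uneven. The sum over 7 pigment epithelium markers was 3786 to 90967 in WT and 6359 to 40493 in TG, over 4 lens markers 21.1 to 22626 in WT and 52.3 to 18795 in TG and over 3 oligodendrocyte markers 227 to 10311 in WT and 253 to 492 in TG. WT 3 was the highest library for all 3 sums. The 5 Mueller glia markers summed to 16328 to 69372 in WT and 23719.9 to 76299.8 in TG. The 5 markers of microglia and macrophages all lay above 0 in TG (sums 4523 to 6386 in WT and 5331 to 10736 in TG) and the 4 of endothelium, whose cells carry GLUT1, all lay below 0 (2868 to 6248 in WT and 2519 to 4225 in TG), with 0 passing in either. The sums of the 5 bipolar cell markers did not overlap between the groups (44644 to 46356 in WT and 47251 to 63716 in TG). The sums of every other cell type examined did overlap, and 2.53% of all single features did not. Of the 5 bipolar markers 4 lay above 0 in TG, each marker's own groups overlapped and 0 passed. Otx2, the most abundant of the 5, had a log2 fold change of 0.07 and Grm6 one of -0.004. The part of any of these cell types in the members' values was not tested. In whole tissue, fewer cells of a type and less RNA per cell cannot be told apart.

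The upstream sequences of 5 members are shown because they hold the letters that textbook regulators of glycolysis read. Hypoxia-inducible factors bind around ACGTG or GCGTG, MYC-type factors bind CACGTG, and the photoreceptor factor CRX binds around TAATCC. Each line is the 250 bases before a RefSeq start site (GRCm38.p6, the build of the deposited coordinates), 5′ to 3′ on the gene's strand, and capitals mark any of these letters on either strand. Pfkfb4 and Eno1 were the 2 members with an unadjusted p under 0.05, Ldha and Slc16a1 hold CACGTG, and Pgk1 is a textbook hypoxia target. The windows are chr9:108991652-108991901 for Pfkfb4, chr4:150236947-150237196 for Eno1, chr7:46845554-46845803 for Ldha, chr3:104638414-104638663 for Slc16a1 and chrX:106186850-106187099 for Pgk1, all on the plus strand.
Pfkfb4: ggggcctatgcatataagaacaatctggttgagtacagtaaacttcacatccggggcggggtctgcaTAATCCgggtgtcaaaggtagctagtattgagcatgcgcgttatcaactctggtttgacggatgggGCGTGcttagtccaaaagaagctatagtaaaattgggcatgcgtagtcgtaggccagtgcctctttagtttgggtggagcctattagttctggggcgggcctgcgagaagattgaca
Eno1: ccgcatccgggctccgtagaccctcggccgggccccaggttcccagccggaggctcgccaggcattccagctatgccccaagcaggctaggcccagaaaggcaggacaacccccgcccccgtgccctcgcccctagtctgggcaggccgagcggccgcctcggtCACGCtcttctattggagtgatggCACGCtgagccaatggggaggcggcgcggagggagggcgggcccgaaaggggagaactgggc
Ldha: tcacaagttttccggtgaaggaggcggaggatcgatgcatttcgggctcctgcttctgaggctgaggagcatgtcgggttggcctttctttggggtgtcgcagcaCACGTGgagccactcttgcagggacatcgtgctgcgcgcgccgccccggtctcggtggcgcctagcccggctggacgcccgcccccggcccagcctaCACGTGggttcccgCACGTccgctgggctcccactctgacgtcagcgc
Slc16a1: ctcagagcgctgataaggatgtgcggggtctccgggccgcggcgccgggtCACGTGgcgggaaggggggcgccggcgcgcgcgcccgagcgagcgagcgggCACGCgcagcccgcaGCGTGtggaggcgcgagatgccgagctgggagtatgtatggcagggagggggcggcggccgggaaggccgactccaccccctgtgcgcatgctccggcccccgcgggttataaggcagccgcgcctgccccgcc
Pgk1: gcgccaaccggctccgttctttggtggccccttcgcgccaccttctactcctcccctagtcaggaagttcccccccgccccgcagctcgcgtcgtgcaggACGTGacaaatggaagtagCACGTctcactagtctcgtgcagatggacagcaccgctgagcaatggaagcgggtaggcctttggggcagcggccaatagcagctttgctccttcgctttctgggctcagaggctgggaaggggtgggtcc

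A start site was listed for 30 of the 33 members, the exceptions being Slc2a3, Slc16a7 and Bsg. Where a gene had several, the site nearest to the upstream end of its feature was used. ACGTG or GCGTG stood in 22 of the 30 windows (73.3%) and in 38.6% of all 32851 windows of that length. ACGTG alone stood in 12 (40%, against 16.6% of all), and CACGTG, which contains ACGTG on both strands, in 4 (Pfkm, Ldha, Slc16a1 and Pdk2; 13.3%, against 6.02%). The Ldha window holds CACGTG 2 times. TAATCC stood in 3 windows, those of Pfkp, Pfkfb4 and Aldoc (10%, against 6.25%). These are matches of letters and were not tested as binding sites. The shares were not adjusted for base composition, and a single window per member was set against every window listed for every gene. The Pfkfb2 window lay 13207 bases from the end of its feature.

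No member passed the test of TG against WT after adjustment over all features. With limma on log2(normalized value + 1), 0 of the 33 passed an adjusted p of 0.05, where 0.0101% of the 19798 features tested passed (0.00505% higher and 0.00505% lower in TG), and the smallest adjusted p of a member was 0.92. At an unadjusted p under 0.05 there were 2 members, Eno1 higher and Pfkfb4 lower, and 2 of 33 is close to the 4.64% of all features (2.02% higher and 2.62% lower). The count tests edgeR and DESeq2 also called 0 members, where 0.0101% and 0.0808% of all features passed. At an unadjusted p under 0.05 each had 4 of the 33 (Eno1, Gpi1 and Pdk3 higher and Pfkfb4 lower), where edgeR had 4.12% and DESeq2 5.34% of all features, so the members' share was above the background with these tools and close to it with limma. The groups did not overlap for 1 member, Pfkfb4, against 2.53% of all features (1.16% with TG lower and 1.36% with TG higher). Log2 fold changes lay above 0 for 23 members and below 0 for 10, with a median of 0.11. Over all features 47.8% lay above 0 and the median was -0.02. The count above 0 ranged from 19 without TG 8 to 25 without TG 6 or with upper-quartile scaling, and the median was 0.04 without WT 3 and TG 6.

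**Figure D1:**
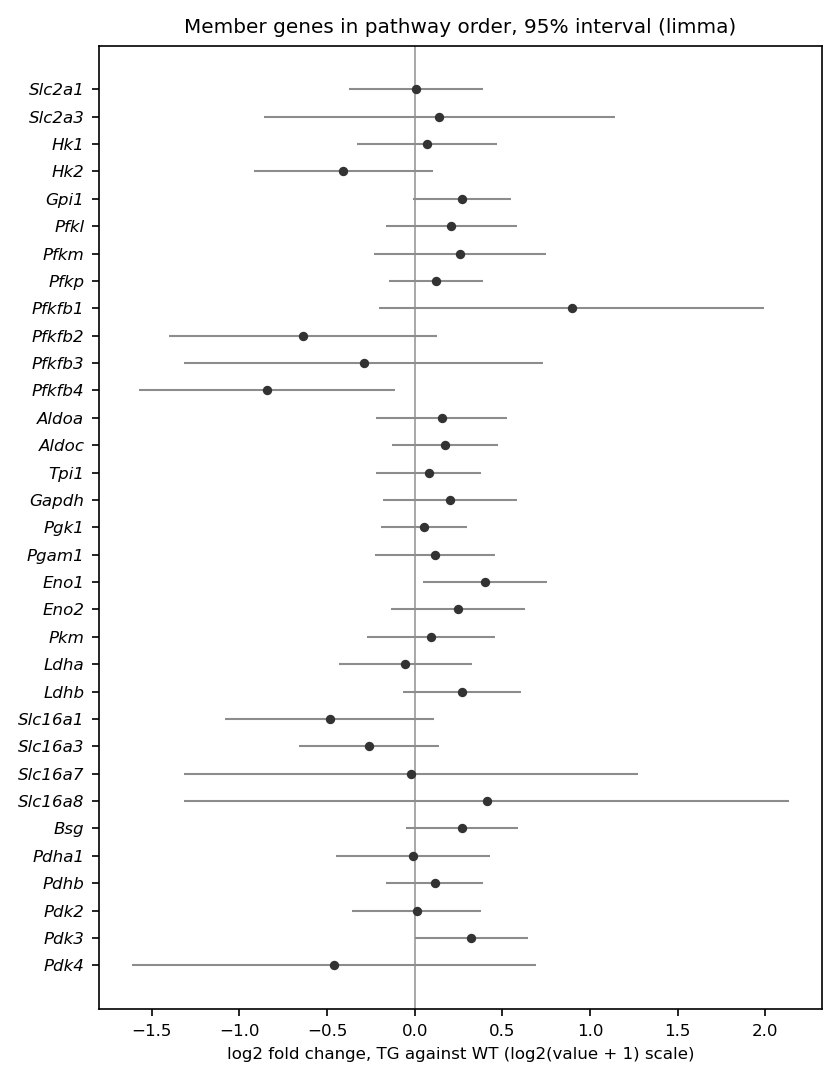
Log2 fold change of TG against WT for each of the 33 genes in pathway order (points, limma on the log2(value + 1) scale) with 95% intervals (bars), n = 4 retinas per group. Intervals of Eno1 and Pfkfb4 exclude 0 before adjustment, and the widest interval is that of Slc16a8.

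Glucose enters retinal cells mainly through GLUT1, encoded by Slc2a1, and neurons also use GLUT3, encoded by Slc2a3. Slc2a1 had 5482, 5296, 5201 and 8179 normalized reads in WT 3, 4, 5 and 7 and 6754, 6167, 4505 and 6706 in TG 2, 5, 6 and 8. WT 7 was the highest and TG 6 the lowest library, and the groups overlapped (log2 fold change 0.01 ± 0.18, SE; 95% interval -0.37 to 0.39). That fold change lay below 0 without WT 3, 4 or 5 or TG 2, 5 or 8, each left out in turn. Slc2a3 had 109.5, 451, 333 and 742 normalized reads in WT 3, 4, 5 and 7 and 472, 366, 228 and 457 in TG 2, 5, 6 and 8, with WT 3 lowest and WT 7 highest, so the WT libraries spanned the TG values. Its log2 fold change was 0.14 ± 0.46 (SE) and turned to -0.39 without WT 3. Per kb of exon, Slc2a1 made up 96.8% ± 1.53 in WT and 97% ± 0.419 in TG of the 2 transporters' reads (SD, n = 4).

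Hexokinase message was mostly that of Hk1, the housekeeping form. Per kb of exon, Hk1 stood at 12324 in WT and 13061 in TG normalized reads and Hk2, the inducible form that rods express, at 1103 in WT and 801 in TG. Hk2 had 4778, 9583, 4303 and 7683 normalized reads in WT 3, 4, 5 and 7 and 5042, 6026, 4331 and 3717 in TG 2, 5, 6 and 8. WT 4 and WT 7 lay above every TG library while WT 3 and WT 5 lay within the TG range (log2 fold change -0.41 ± 0.24, SE; -0.92 to 0.10). Hk2 was 8.42% ± 3.46 in WT and 5.84% ± 0.783 in TG of hexokinase reads per kb (SD, n = 4), with a WT range of 4.63% to 11.6%. Hk1 itself ran 83969 to 126663 in WT and 77713 to 133188 in TG, with a log2 fold change of 0.07 ± 0.19 (SE) that lay below 0 without WT 7 or TG 5.

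Gpi1, which interconverts glucose 6-phosphate and fructose 6-phosphate, had 36958, 42704, 46479 and 42581 normalized reads in WT 3, 4, 5 and 7 and 44723, 47244, 56104 and 55487 in TG 2, 5, 6 and 8. TG 5, TG 6 and TG 8 lay above every WT library and TG 2 below WT 5, and the log2 fold change was 0.27 ± 0.13 (SE; -0.01 to 0.55). The 3 phosphofructokinase genes all stayed within overlapping ranges. Pfkl, the liver-type subunit, ran 20548 to 31915 in WT and 22087 to 37596 in TG; Pfkm, the muscle type, 4049 to 7332 in WT and 4988 to 9779 in TG; and Pfkp, the platelet type, 13724 to 16806 in WT and 14669 to 18675 in TG. Their log2 fold changes were 0.21 ± 0.17, 0.26 ± 0.23 and 0.12 ± 0.12 (SE) in that order. From hexokinase to phosphofructokinase, 5 of the 6 genes lay above 0 and 0 passed. Pfkl was the most abundant per kb, at 57.2% ± 7.22 in WT and 56.9% ± 7.9 in TG of the 3 (SD, n = 4). Pfkm took 25.9% ± 6.39 in WT and 27.2% ± 8.82 in TG and Pfkp 16.9% ± 1.28 in WT and 15.9% ± 1.67 in TG. Before division by length, Pfkp had more normalized reads than Pfkm in every library. Its exon union is 13.4 kb, against 3.34 kb for Pfkm, so the order of these 2 rests on the length used. The Pfkm share was 34.0% in WT 7, 35.1% in TG 2 and 34.2% in TG 8, the 3 libraries with the highest Mueller glia sums (69372, 67627 and 76299.8), and 17.4% to 27.97% in the others (16328 to 34598). The part of glial content in this was not tested.

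The PFKFB genes encode bifunctional enzymes that set fructose 2,6-bisphosphate and were all of low abundance. Log2 fold changes lay below 0 for 3 of the 4, with a median of -0.47, and 0 passed. Pfkfb4 (chromosome 9, 108991902 to 109032197) had 136, 131, 115 and 151 normalized reads in WT 3, 4, 5 and 7 and 92.2, 88.1, 75.3 and 47.8 in TG 2, 5, 6 and 8. Every TG library lay below every WT library, the lowest being TG 8 (means 133 ± 14.8 in WT and 75.8 ± 20 in TG, SD, n = 4 per group). The log2 fold change was -0.84 ± 0.34 (SE; -1.57 to -0.11), with an adjusted p of 0.92 (limma), so it did not pass. It stayed below 0 without any 1 library, from -0.95 to -0.64. Pfkfb2 had 837, 1171, 435 and 1359 normalized reads in WT 3, 4, 5 and 7 and 901, 700.0, 436 and 358 in TG 2, 5, 6 and 8, and WT 5 lay near the lowest TG libraries (log2 fold change -0.64 ± 0.35, SE). The deposited feature for Pfkfb2 is listed under a joint symbol with the pseudogene C4bp-ps1, so its reads may not be of Pfkfb2 alone. Pfkfb3, the form with the highest kinase activity, had 131, 269, 62.4 and 245 normalized reads in WT 3, 4, 5 and 7 and 193, 132, 64.2 and 145 in TG 2, 5, 6 and 8. WT 5 and TG 6 were about equal and lowest, and the fold change of -0.29 ± 0.48 (SE) crossed 0 without TG 6. Pfkfb1, at 18.4 to 77.2 in WT and 45.2 to 101.3 in TG, stood at 0.89 ± 0.51 (SE), the highest fold change of any member and an unadjusted interval (-0.20 to 1.99) that includes 0.

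**Figure D2:**
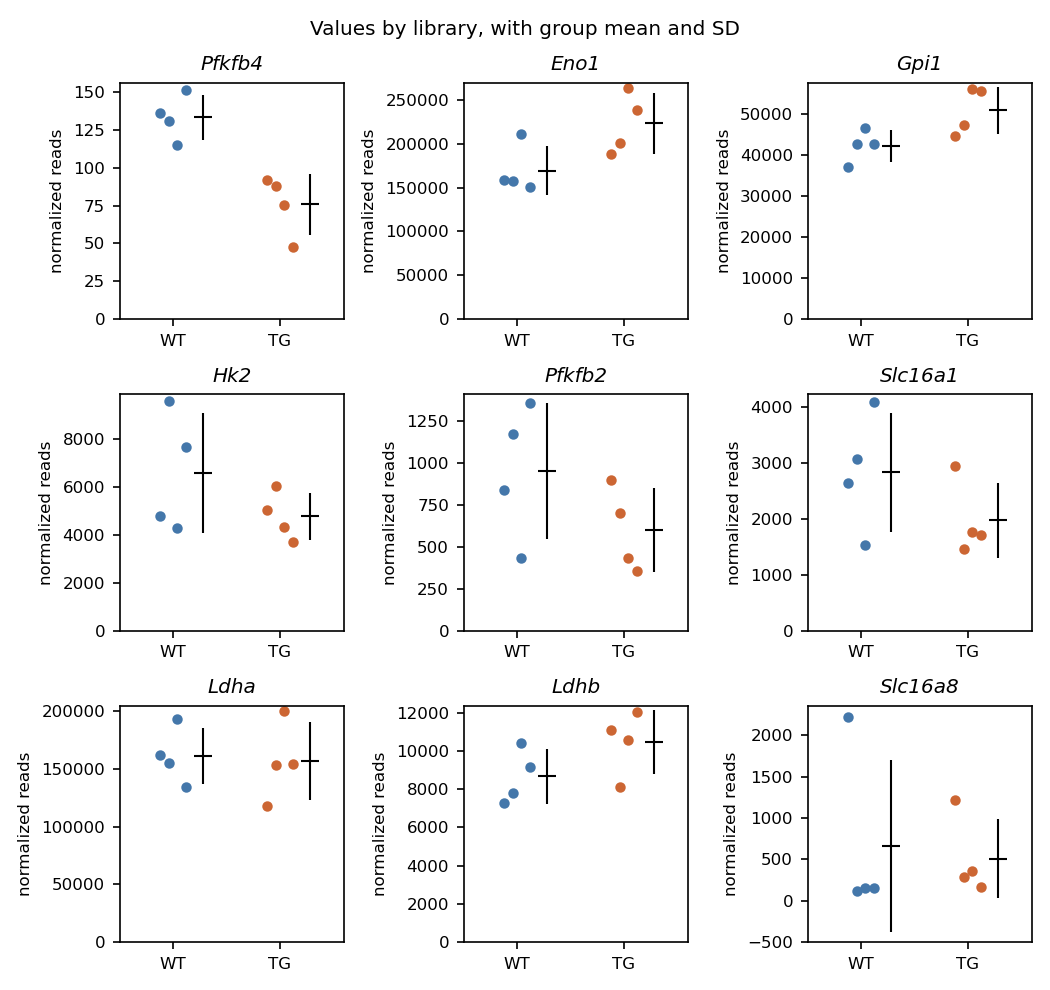
Normalized reads of 9 members by library (points; WT blue, TG orange) with the group mean and SD (black), n = 4 retinas per group. Pfkfb4 is the only panel in which the groups do not overlap, and Slc16a8 is high in WT 3 and TG 2.

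From aldolase to pyruvate kinase, all 9 genes had a log2 fold change above 0 (0.05 to 0.40), and 0 of the 9 passed. Tpi1 and Pgk1 lay just below 0 without TG 8, and so did Pkm without TG 6. Per kb, 6 of the 9 were among the 8 most abundant members, while Aldoc, Pgk1 and Eno2 ranked lower. Pkm, pyruvate kinase, stood at 80872 in WT and 87126 in TG reads per kb, Aldoa, the main aldolase, at 78287 in WT and 87689 in TG, and Gapdh, which oxidises glyceraldehyde 3-phosphate, at 37049 in WT and 42822 in TG. The M1 and M2 forms of Pkm are splice variants of 1 gene and were summed in the deposited table.

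Eno1, the ubiquitous enolase (chromosome 4, 150237197 to 150248875), had 158189, 157739, 211016 and 150276 normalized reads in WT 3, 4, 5 and 7 and 188676, 201346, 263862 and 238978 in TG 2, 5, 6 and 8. WT 5 was higher than TG 2 and TG 5, while the other 3 WT libraries lay below every TG library. The group means were 169305 ± 28043 in WT and 223215 ± 34505 in TG (SD, n = 4 per group), and a log2 fold change of 0.40 ± 0.16 (SE; 95% interval 0.05 to 0.75) missed the threshold (adjusted p = 0.92, limma). Eno1b, an intronless near-identical copy, was listed as a separate feature with 64092 to 99446 normalized reads, or 24.6% to 35.2% of the reads of both. How reads were divided between the copies was not given in the sources used here. With both summed, a choice made after the copy was seen, the log2 fold change was 0.35 and did not pass either (adjusted p = 0.92, limma). Eno2, the neuronal enolase, ran 9294 to 14629.9 in WT and 10433 to 17272 in TG and stood at 0.25 ± 0.18 (SE).

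Aldoc, the brain-type aldolase, ran 28349 to 40029 in WT and 34507 to 44920.4 in TG (log2 fold change 0.17 ± 0.14, SE) and was 11.9% ± 1.37 in WT and 12.1% ± 2.16 in TG of aldolase reads per kb (SD, n = 4). Tpi1, which interconverts the triose phosphates, ran 43012 to 50105 in WT and 42149 to 58306 in TG (log2 fold change 0.08 ± 0.14, SE). Pgk1, the first ATP-forming enzyme, had the narrowest spread in WT relative to its mean, 11818 to 12879, and 11484 to 14181 in TG, with an interval of -0.20 to 0.30 for its log2 fold change. Pgam1, phosphoglycerate mutase, was narrow in WT (66921 to 73774) and wide in TG (57117 to 92168), with a log2 fold change of 0.11 ± 0.16 (SE). Gapdh ran 135251 to 191693 in WT and 145879 to 232907 in TG, Aldoa 185270 to 251484 in WT and 177645 to 286769 in TG and Pkm 376101 to 445827 in WT and 365673 to 543012 in TG. These 3 had log2 fold changes of 0.20 ± 0.18, 0.15 ± 0.17 and 0.09 ± 0.17 (SE). Several of these genes have processed copies elsewhere in the genome, so their reads carry the same uncertainty as those of Eno1.

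Lactate dehydrogenase is a tetramer of A subunits (Ldha), which favour lactate formation, and B subunits (Ldhb), which favour its use. Ldha had 161377, 154694, 192626 and 134307 normalized reads in WT 3, 4, 5 and 7 and 117964, 153264, 200060 and 153722 in TG 2, 5, 6 and 8. TG 2 was lowest and TG 6 highest, and the log2 fold change of -0.05 ± 0.18 (SE; -0.43 to 0.33) turned positive without WT 5 or TG 2. Ldhb had 7296, 7782, 10425 and 9151 normalized reads in WT 3, 4, 5 and 7 and 11072, 8111, 10594 and 12006 in TG 2, 5, 6 and 8, with TG 5 within the WT range (log2 fold change 0.27 ± 0.16, SE). Ldhb was 9.78% ± 1.58 in WT and 12.1% ± 3.07 in TG of lactate dehydrogenase reads per kb (SD, n = 4), from 8.27% in WT 3 to 15.8% in TG 2. The log2 ratio of Ldhb to Ldha was -4.22 ± 0.25 in WT and -3.89 ± 0.41 in TG (SD, n = 4 per group; two-sided exact permutation p = 0.229).

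**Figure D3:**
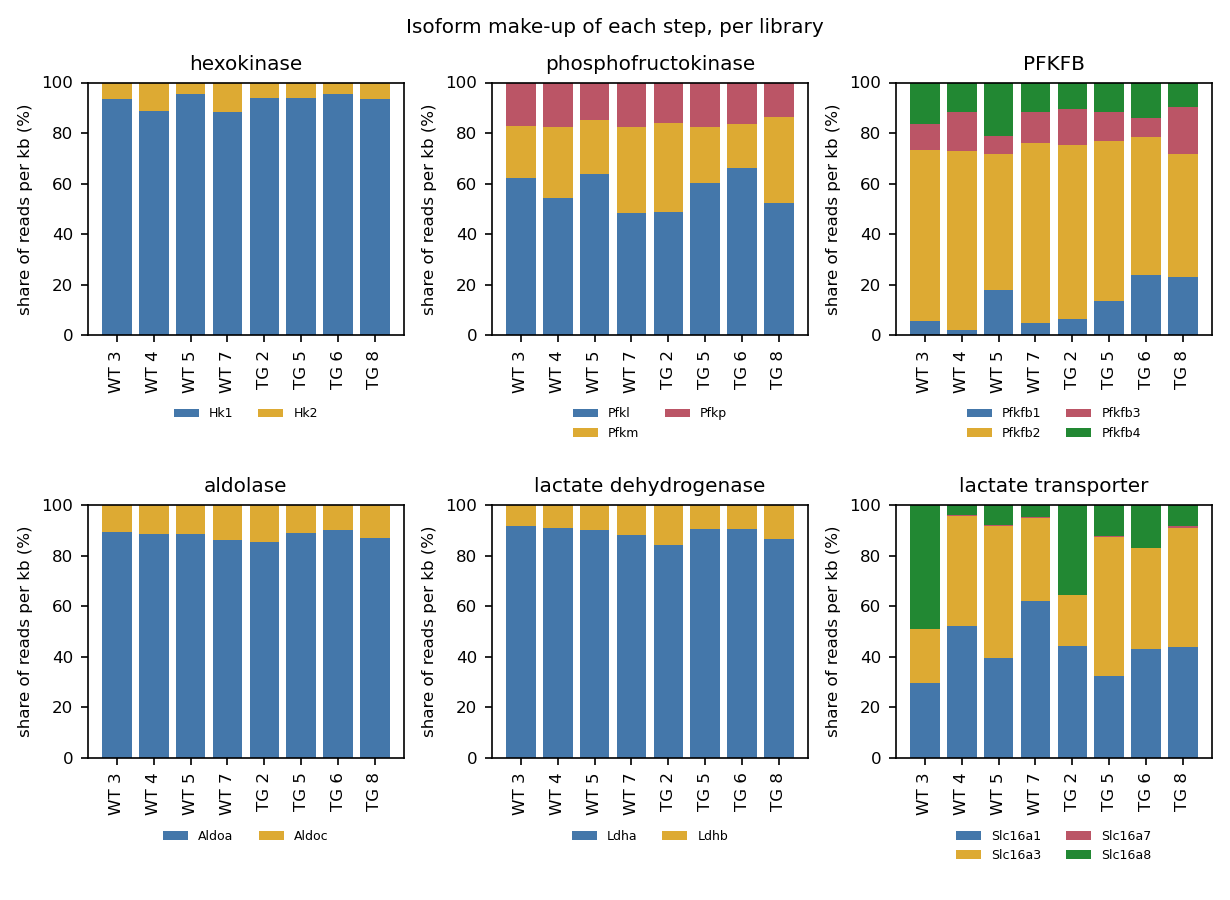
Share of each isoform in the reads per kb of exon of its step (stacked bars, %), for each of the 8 libraries. The main isoform is the same in every library for the hexokinase, phosphofructokinase, PFKFB, aldolase and lactate dehydrogenase steps. The main lactate transporter differs from library to library.

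Of the lactate transporters, Slc16a1 encodes MCT1, Slc16a3 the exporter MCT4, Slc16a7 the neuronal MCT2 and Slc16a8 MCT3, which is typical of pigment epithelium. Slc16a1 had 2635, 3056, 1523 and 4082 normalized reads in WT 3, 4, 5 and 7 and 2947, 1462, 1757 and 1716 in TG 2, 5, 6 and 8. WT 7 was highest, TG 2 lay among the other WT libraries and WT 5 among the TG ones (log2 fold change -0.49 ± 0.28, SE; -1.08 to 0.11). Slc16a3 ran 2258 to 3054 in WT and 1599 to 2998 in TG and stood at -0.26 ± 0.19 (SE). Slc16a7 was scarce, with 21.1 to 95.5 in WT and 22.2 to 71.2 in TG and a log2 fold change of -0.02 ± 0.60 (SE). Bsg, basigin, also receives the rod-derived factor that raises glucose uptake by cones, and had 47919, 39459.9, 44740.5 and 56547 normalized reads in WT 3, 4, 5 and 7 and 51984, 49077, 59256 and 66776 in TG 2, 5, 6 and 8. TG 6 and TG 8 were the highest libraries and WT 4 the lowest (log2 fold change 0.27 ± 0.15, SE; -0.05 to 0.59).

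Slc16a8 (chromosome 15, 79251014 to 79254757) varied more between libraries than any other member. It had 2226, 121, 157 and 159 normalized reads in WT 3, 4, 5 and 7 and 1213, 287, 357 and 169.7 in TG 2, 5, 6 and 8. WT 3 and TG 2 stood above the other 6 libraries, so both groups held a high library. The summed pigment epithelium markers, 90967 in WT 3 and 40493 in TG 2, were highest in the same libraries, followed as Slc16a8 was by TG 6 (20856) and TG 5 (10850.3), and both were lowest in WT 4 (3786). Ttr made up most of each sum, with 67791 of the WT 3 sum. Of the 7 markers, Ttr, Rpe65, Rgr and Lrat were highest in WT 3 and then TG 2, whereas Tyrp1 was highest in TG 6 (872) and WT 7 (858), Pmel in WT 7 (289.5) and Best1 in WT 4 (82.9, against 29.7 in WT 3). A fit of TG against WT with the mean log2(value + 1) of these 7 markers as a term was among the alternatives, and 0 members passed in it. The part of epithelium in the Slc16a8 values was not itself tested. Its log2 fold change was 0.41 ± 0.80 (SE), 1.39 without WT 3, -0.15 without TG 2, and -0.35 with edgeR, so it had no settled direction. The feature overlaps another annotated gene, Gm49486, whose reads may not be separable. Slc16a8 was 48.9% of the lactate transporter reads per kb in WT 3 and 4.01% in WT 4.

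**Figure D4:**
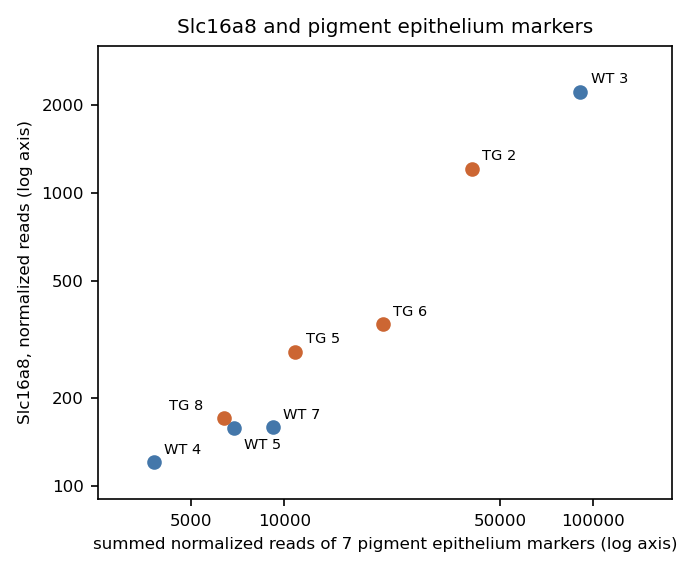
Normalized reads of Slc16a8 (vertical, log axis) against the summed normalized reads of 7 pigment epithelium markers (horizontal, log axis), 1 point per library (WT blue, TG orange). WT 3 and TG 2 are highest on both axes and WT 4 is lowest on both.

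Pyruvate dehydrogenase was measured through its E1 subunits, Pdha1 and Pdhb, and its inhibitory kinases. Pdha1 ran 1416 to 2798 in WT and 1544 to 2373 in TG and Pdhb 3782 to 4989 in WT and 4279 to 4864 in TG, with log2 fold changes of -0.01 ± 0.20 and 0.11 ± 0.13 (SE). Pdk3 had 1707, 2078, 1689.9 and 1759 normalized reads in WT 3, 4, 5 and 7 and 2153, 2765, 2214 and 1952 in TG 2, 5, 6 and 8. TG 2, TG 5 and TG 6 lay above every WT library and TG 8 below WT 4, and Pdk3, at 0.32 ± 0.15 (SE), did not pass. Pdk2, the most widely expressed kinase, ran 1392 to 1983 in WT and 1358 to 1955 in TG and stood at 0.01 ± 0.17 (SE; -0.36 to 0.38). Pdk4, which responds to fasting and fatty acids, was low, at 33.1 to 57.1 in WT and 17.3 to 52.7 in TG, and stood at -0.46 ± 0.53 (SE). Among these 3 kinases Pdk3 was 56.7% ± 3.7 in WT and 61.9% ± 7.42 in TG of reads per kb (SD, n = 4).

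Isoform use within a step was compared as a log2 ratio in each library, which does not depend on library scaling. For all 12 ratios the groups overlapped. The smallest two-sided exact permutation p was 0.229 and became 0.857 after adjustment over the 12, while 4 against 4 samples allow a p of 0.0286 at the lowest. The ratio of Hk1 to Hk2 was 4.06 ± 0.70 in WT and 4.54 ± 0.22 in TG and that of Pdk4 to Pdk2 -5.33 ± 0.54 in WT and -5.81 ± 0.51 in TG (SD, n = 4 per group), the pair with the highest and the lowest difference. The ratio of Aldoc to Aldoa was -2.60 ± 0.18 in WT and -2.58 ± 0.29 in TG, that of Pfkm to Pfkl -2.15 ± 0.53 in WT and -2.10 ± 0.69 in TG, that of Eno2 to Eno1 -3.82 ± 0.41 in WT and -3.97 ± 0.46 in TG and that of Slc16a3 to Slc16a1 -0.06 ± 0.55 in WT and 0.17 ± 0.79 in TG.

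Several members were high or low in the same libraries of each group. WT 5 and TG 6 were the highest libraries of their groups for the same 8 genes, Gpi1, Pfkl, Pfkfb1, Aldoa, Gapdh, Eno1, Pkm and Ldha. Slc2a1, Pfkfb3 and Slc16a7 were at their lowest in both. WT 7 and TG 2 were the highest of their groups for Slc2a1, Slc2a3, Pfkfb2, Pfkfb4, Slc16a1, Pdha1 and Pdk2 and lowest for Pfkl, Aldoa, Eno1 and Ldha. WT 7 and TG 8 were highest for another 7, Pfkm, Tpi1, Pgk1, Eno2, Slc16a7, Bsg and Pdhb. These were the pairs sharing the most among the 16 pairs of 1 WT and 1 TG library, the others sharing 0 to 4 highest members, and no test was made of the sharing. WT 5 and TG 6 had the lowest Mueller glia sums of their groups, 16328 and 23719.9, and the highest rod sum of all was that of TG 6 (4116620), whereas WT 5 (3440540) was below WT 7 (3511130). The part of cell make-up in this pattern was not tested. WT 3 lay above the gene mean for 6 of 33 members and TG 8 for 23, with 15 to 18 in the other libraries.

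**Figure D5:**
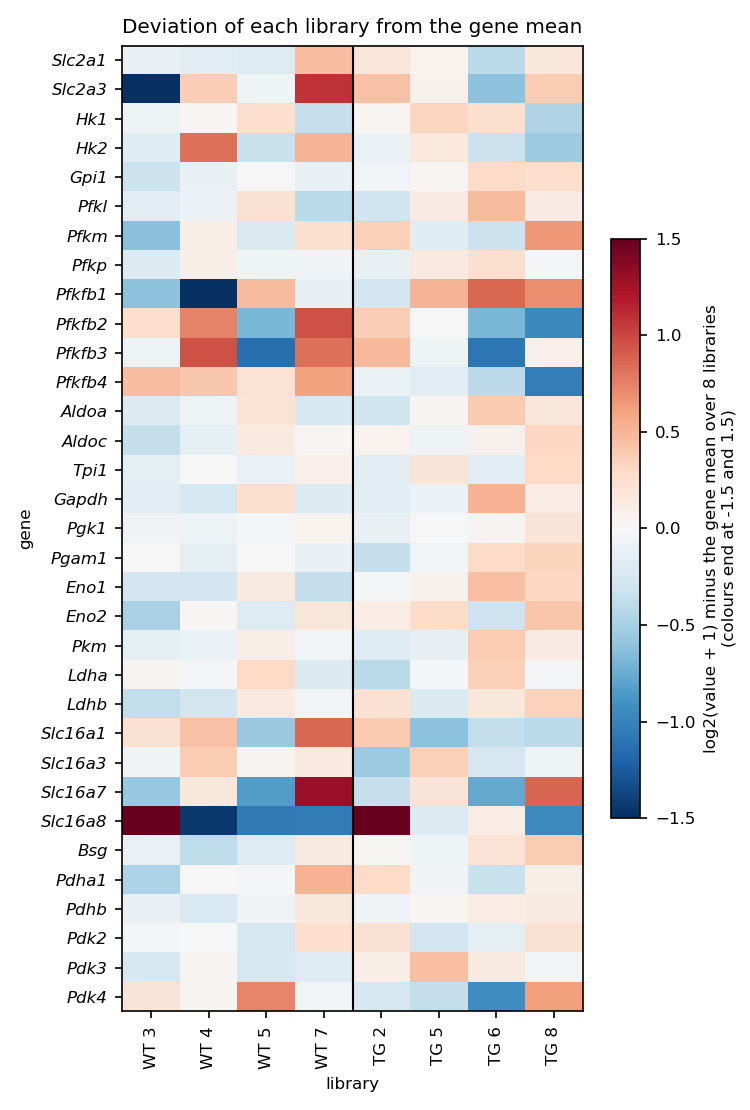
Deviation of each library from the gene's mean over 8 libraries, on the log2(value + 1) scale (red above, blue below, colours ending at -1.5 and 1.5), for the 33 genes in pathway order; the black line separates WT from TG. WT 5 resembles TG 6 and WT 7 resembles TG 2 for several genes, and Slc16a8 stands out in WT 3 and TG 2.

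Around the pathway, 73 further genes in 6 lists were read from the same fit, of which 65 had a mean of at least 10 and 0 passed (limma). At an unadjusted p under 0.05 there were 4 of the 65 (Hkdc1, Dld, Tkt and Egln3), where limma had 4.64% of all features. With edgeR and DESeq2 each, 0 were called and 5 of the 65 stood at that level, where 4.12% and 5.34% of all features did. Other glycolytic isoforms and transporters lay above 0 for 10 of 16 tested, with Hkdc1, a hexokinase relative, at 0.78 ± 0.34 (SE; 269.8 to 548 in WT and 309 to 1046 in TG), the muscle mutase gene Pgam2 at 0.70 ± 0.38 and the GLUT8 gene Slc2a8 at -0.50 ± 0.33. Genes for pyruvate entry into mitochondria lay below 0 for 8 of 10. Among them Dld, the E3 subunit of pyruvate dehydrogenase, had 10304, 8765, 7984 and 10036 normalized reads in WT 3, 4, 5 and 7 and 7503, 7553, 7798 and 7269 in TG 2, 5, 6 and 8. Each TG value was below each WT value, which held for 1 of the 65 genes and for 1.16% of all features. Dld did not pass (-0.29 ± 0.12, SE). The pyruvate dehydrogenase phosphatase Pdp1 stood at -0.31 ± 0.16 and the kinase Pdk1, a hypoxia-inducible relative of Pdk2, at -0.66 ± 0.44 (SE; 112 to 255 in WT and 56.6 to 197 in TG).

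In the pentose phosphate list 6 of 8 lay above 0, with transketolase, Tkt, at 0.40 ± 0.18, Rpe at -0.38 ± 0.19 and Pgd at 0.15 ± 0.14 (SE). Tkt ran 11679.6 to 18477 in WT and 17251 to 27652 in TG, and TG 8 was its highest library. Glycogen genes were split 6 to 4, with Pgm1 at -0.33 ± 0.20, glycogenin, Gyg, at 0.22 ± 0.14 and the branching enzyme Gbe1 at 0.25 ± 0.19 (SE). The genes of NADH shuttles were split 5 to 5, with Mdh2 at 0.21 ± 0.12, Slc25a13 at 0.63 ± 0.40 and Gpd1l at -0.56 ± 0.42 (SE). Among 11 tested regulators 4 lay above 0. Egln3, a prolyl hydroxylase that marks hypoxia-inducible factors for removal, stood at 0.55 ± 0.25, Arrdc4, which limits glucose uptake, at 0.54 ± 0.34 and Epas1, hypoxia-inducible factor 2 alpha, at -0.49 ± 0.32 (SE). Nxnl1, which encodes the rod-derived factor that binds basigin, ran 4599.5 to 6939 in WT and 4243 to 6081 in TG and stood at -0.09 ± 0.16 (SE).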

How the data were processed

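The deposited values are a signal, normalized reads by the table's own name, and the authors list DESeq2 as a tool, per the submitters' processing notes. Also listed are STAR 2.4.0, FastQC, Picard and SAMtools, with mm10 (GRCm38). The counting tool, strand setting and annotation were not given in the sources used here, and 17 of the 33 members overlap another annotated gene (GENCODE M21), whose reads may not be separable. Each column was whole multiples of its smallest value (100% of values within 0.01), so whole reads were recovered by dividing by it, and edgeR called 2 features on them.

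The test was limma 3.58.1 (R 4.3.3) with a trended variance on log2(value + 1), for the 19798 features whose mean reached 10, with Benjamini-Hochberg adjustment over all of them. The added 1 draws fold changes of low genes toward 0, but they were not always below those of the count tests. For Pfkfb1 the value was 0.89, against 0.90 with 0.5 added, 0.82 with 5 added and 0.79 with edgeR. edgeR 4.0.16 and DESeq2 1.42.0 on the recovered reads were alternatives, among those in the closing section. Levels per kb used the union of exons in GENCODE M21, so the order of genes per kb depends on that length. Isoform ratios were compared by exact permutation. The procedure was tested on simulated counts, the outcome of which is not given here. Genes named were the 33 members and up to 3 genes per surrounding list, those with the smallest p, and Nxnl1. Members, lists and alternatives were chosen with earlier results of these data known. The number of unmapped sample columns was 0. Intervals are 95% and two-sided.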

Additional observations from a re-analysis of the deposited data

Results flagged for a closer look

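Of 66 groups of 4 values (33 genes in WT and in TG), 3 held a library far from the other 3, where chance gives about 1 in 20. Slc16a8 had 2226 normalized reads in WT 3 against 121 to 159 in the other WT libraries. Slc2a1 had 8179 in WT 7 against 5201 to 5482. Eno1 had 211016 in WT 5 against 150276 to 158189.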

How the results depend on the processing

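No member passed under any of the 20 alternatives, and 21 of 33 gene fold changes and 6 of 12 ratios kept their sign in all that were run. Over all features, 1 was higher and 1 lower. The higher count was 0 with a pseudocount of 0.5, without the filter on low values, with a minimum mean of 50 and with sex as a term, and DESeq2 called 9 higher and 7 lower. Leaving out 1 library gave 0 to 2 higher and 1 to 2 lower. Leaving out 1 library also carried these log2 fold changes across 0, the cause of which was not tested: Hk1 (-0.033 to 0.23), Ldha (-0.18 to 0.073), Pdha1 (-0.17 to 0.16), Pdk2 (-0.073 to 0.11), Pfkfb3 (-0.72 to 0.022), Pgk1 (-0.0024 to 0.099), Pkm (-0.019 to 0.17), Slc16a7 (-0.32 to 0.40), Slc16a8 (-0.15 to 1.39), Slc2a1 (-0.056 to 0.16), Slc2a3 (-0.39 to 0.52), Tpi1 (-0.0074 to 0.15). The same held for the ratios Aldoc to Aldoa (-0.094 to 0.13), Eno2 to Eno1 (-0.29 to 0.076), Pfkm to Pfkl (-0.16 to 0.32), Pfkp to Pfkl (-0.20 to 0.015), Slc16a3 to Slc16a1 (-0.063 to 0.58), Slc2a3 to Slc2a1 (-0.36 to 0.36). Without WT 3 and TG 6 together, signs changed for Slc2a3 (-0.17), Hk1 (-0.014), Pkm (-0.053), Slc16a7 (0.033) and the ratio of Slc2a3 to Slc2a1 (-0.27). With sex as a term they changed for Slc2a1 (-0.026) and Pdk2 (-0.037), and with upper-quartile scaling for Slc16a7 (0.023) and Pdha1 (0.037). With edgeR they changed for Slc2a3 (-0.11) and Slc16a8 (-0.35), and with DESeq2 for Slc2a1 (-0.0015), Slc2a3 (-0.10) and Slc16a8 (-0.39). Slc16a7 and Pdk4 could not be fitted at a minimum mean of 50.

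No paired analysis was made, since the labels pair no WT retina with a TG retina. The 1 replicate number that both groups share, 5, was not read as a pair. The median standard error of a member's log2 fold change was 0.18, against 0.30 over all features. No detection limit was computed.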
